A study of Mus musculus with 26 samples.

Results

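The genes described here encode the semaphorins and their receptors, the plexins and neuropilins. Members were taken by symbol alone, with no measured value used: Sema3 to Sema7 with a letter from a to g, the plexins of families a to d, and Nrp1 and Nrp2. The rule found 31 of the 37310 genes in the count tables, namely 20 semaphorins, 9 plexins and 2 neuropilins. Among the semaphorins, 7 were of class 3, 6 of class 4, 2 of class 5, 4 of class 6 and 1 of class 7.

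The members were followed in mammary tumors and tumor organoids in which the long noncoding RNA Malat1 was targeted by antisense oligonucleotides (ASOs). All material came from C57BL/6 mice carrying MMTV-PyMT, a transgene in which a mammary tumor virus promoter drives the polyoma middle T antigen in mammary epithelium, so that control groups carried the oncogene too. Tumor-bearing mice received 125 mg/kg per week of an oligonucleotide under the skin for several weeks: Malat1 ASO1 in 3 tumors, Malat1 ASO2 in 4, and the control oligonucleotide labelled scASO in 3. Organoids, pieces of such tumors grown in Matrigel with the growth factor FGF2, were exposed for 6 days to 500 nM of ASO1, ASO2 or scASO, renewed after 3 days, or were labelled Mock, with no oligonucleotide named; each of these groups had 4 cultures. The sources give neither ages nor whether tumors or cultures of a group came from separate animals, so p-values measure the spread between these samples, which may be partly technical.

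Semaphorins are secreted, membrane-spanning or membrane-anchored ligands first known for steering growing axons, and they also act on blood vessels, immune cells and epithelia. Plexins are their signalling receptors: the intracellular part of a plexin acts on small GTPases and so changes adhesion and the cytoskeleton. Most secreted class 3 semaphorins cannot bind a plexin well on their own and need a neuropilin, which also binds vascular endothelial growth factors (VEGFs). Class 4 semaphorins mainly use B-type plexins, class 6 semaphorins A-type plexins, Sema3e binds Plxnd1 directly, and Sema7a binds Plxnc1 and integrins.

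Tumor libraries held 9939520 to 51363552 reads assigned to genes, and organoid libraries 23973533 to 65146030. Levels are given in CPM, reads per 1000000 reads assigned to genes, with the total of each library scaled by TMM normalization. Malat1 was at 381 to 913 CPM in tumors with a Malat1 ASO and at 847 to 1913 CPM with scASO. A mean of 45.2% remained (exact two-sided permutation test, p = 0.0333, 7 against 3 tumors). In organoids it was at 86.9 to 1485 CPM with a Malat1 ASO, 119 to 1191 CPM with scASO and 713 to 1578 CPM in Mock cultures, and 35.5% remained (exact two-sided permutation test, p = 0.125, 8 against 4). Those ranges overlapped through 2 libraries whose Malat1 level went against their label, the libraries labelled ASO2 replicate 1 (1485 CPM) and scASO replicate 2 (119 CPM). Without them 15.9% remained (exact two-sided permutation test, p = 0.0167, 7 against 3). Some members in these libraries stood nearer to cultures of the other number, and others did not. Sema3a was at 4.35 CPM in the library labelled ASO2 replicate 1. It was at 0.507 to 0.985 CPM in the other number 1 cultures and 2.50 to 4.27 CPM in those of number 2 apart from scASO replicate 2. Plxnb1 was at 365 CPM in the library labelled scASO replicate 2. It was at 237 to 280 CPM in the other number 2 cultures and 326 to 346 CPM in the number 1 cultures apart from ASO2 replicate 1. Sema3b was nearer to number 2 in both libraries. It was at 226 CPM in ASO2 replicate 1, so nearer to the other number, and at 242 CPM in scASO replicate 2, so nearer to its own. The other number 2 cultures had 220 to 238 CPM of Sema3b, and the number 1 cultures apart from ASO2 replicate 1 had 198 to 209 CPM. These members were picked after values were seen, and what their levels reflect was not tested. The labels were kept, and the main organoid results are followed by their values without these libraries. Luminal epithelial markers (Krt8, Krt18, Epcam and 7 others) summed to 3278 to 5672 CPM in tumors and 5078 to 9762 CPM in organoids, with all 10 detected in every library.

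Plxnb2, a B-type plexin and receptor of class 4 semaphorins, had the highest level of the family per length of transcript in both systems. On the scale of CPM per kilobase of exon it reached 30.8 ± 5.58 (SD, n = 10) in tumors and 65.6 ± 11.3 (SD, n = 16) in organoids. Among the ligands of the tumors, Sema4c, a transmembrane ligand of Plxnb2, was highest at 13.9 ± 2.47, followed by the secreted Sema3b at 12.3 ± 6.35. That pair did not differ beyond its spread. In organoids Sema3b led the ligands at 55.5 ± 14.0, within the spread of Plxnb2, and Sema4c stood at 25.0 ± 7.33. Among plexins the order below Plxnb2 was Plxnb1 (13.8 ± 2.65), Plxna3 (9.05 ± 2.01) and Plxna1 (4.23) in tumors, and Plxnb1 (26.6 ± 6.80), Plxna1 (15.3 ± 4.17) and Plxna3 (8.09) in organoids. Plxnd1, the receptor of Sema3e, was at 2.96 in tumors and 2.48 in organoids, and Plxna2 at 0.324 and 0.766.

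The neuropilins were scarce next to the plexins. Nrp1, co-receptor of Sema3a and of VEGF, had 1.62 ± 0.70 CPM per kilobase in tumors and 0.933 ± 0.655 in organoids. Nrp2, co-receptor of Sema3f and of the lymphatic factor VEGF-C, had 0.517 ± 0.418 in tumors and 4.98 ± 4.22 in organoids, so the leading neuropilin was Nrp1 in tumors and Nrp2 in organoids. Within each system the levels of the 2 genes overlapped in part, and their order rests on means with a wide spread. Summed over members, neuropilins held 11.1 to 34.6 CPM in tumors (median 20.8) and 8.93 to 147 CPM in organoids (median 51.2). Plexins held 410 to 619 CPM in tumors (median 531) and 698 to 1327 CPM in organoids (median 1035), and semaphorins 259 to 546 (median 437) and 745 to 1055 (median 887).

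Class 3 ligands covered the widest range. Sema3f was at 4.74 CPM per kilobase in tumors and 14.3 in organoids, and Sema3c at 2.92 and 7.81. Sema3d (0.386 and 0.154), Sema3g (0.279 and 0.102), Sema3e (0.0319 and 0.171) and Sema3a (0.0217 and 0.0933) were all low. The class 4 ligands Sema4a (9.02 and 7.66), Sema4b (7.08 and 12.2), Sema4d (5.98 and 6.78) and Sema4g (2.69 and 2.97) lay in the upper and middle part of the family, and Sema4f at its bottom (0.0719 and 0.0541). In classes 5 to 7 the order in tumors was Sema6a (5.22), Sema7a (2.97), Sema6d (2.34), Sema6b (1.25), Sema6c (1.01), Sema5a (0.815) and Sema5b (0.0389). The same genes stood at 9.04, 1.85, 3.33, 0.480, 0.575, 3.44 and 0.00817 in organoids. Plxnc1, a receptor best known from immune cells, was at 0.531 and 0.0876, Plxnb3 at 0.513 and 0.102, and Plxna4 at 0.0458 and 0.0161. Sema5b was too low for the separate tests of tumors and of organoids, which therefore covered 30 of the 31 members. Plxna1 shares 10.7% of its exon bases with an antisense transcript and Sema4c 7.27% with a transcript on the opposite strand; the sources do not state if the counting used strand, so reads of such partners may be included.

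**Figure D1:**
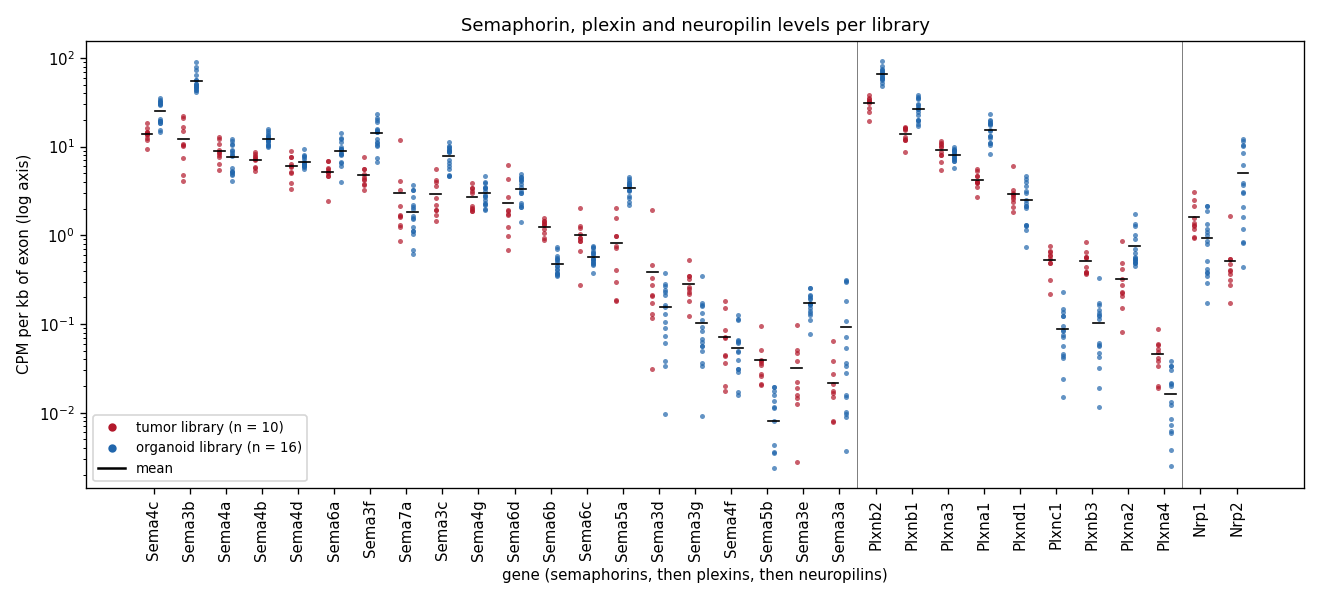
Level of each of the 31 members in every library, in CPM per kilobase of exon on a log axis, with tumors (n = 10) in red, organoids (n = 16) in blue and a line at each mean; values of 0 are not drawn. Plxnb2 has the highest mean in both systems, and Sema3b and Nrp2 have higher means in organoids than in tumors.

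In tumors, no member passed the test for a Malat1 ASO against scASO. The smallest p was that of Sema4d, the ligand of Plxnb1 also known as CD100, whose level in all 7 tumors given a Malat1 ASO was below that of every scASO tumor. Sema4d was at 44.8, 25.9 and 39.6 CPM in the ASO1 tumors, 29.8, 48.8, 38.5 and 46.7 CPM in the ASO2 tumors, and 59.3, 68.1 and 58.1 CPM in the scASO tumors. The highest ASO tumor was thus below the lowest scASO tumor. In edgeR's quasi-likelihood test the log2 difference of both ASOs from scASO was -0.66 ± 0.19 (SE; unadjusted p = 0.00623), and its Benjamini-Hochberg adjusted p over 17354 genes was 0.827.

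Across the comparisons of tumors, edgeR called 0 of 30 members for ASO1, for ASO2 and for both ASOs, where a call is an adjusted p under 0.05. Of all genes tested it called 0.00576% for ASO1 (1 gene), 0% for ASO2 and 0% for both. At an unadjusted p under 0.05, 7, 2 and 3 of 30 members passed, against 8.45%, 5.14% and 5.86% of all genes, and DESeq2 called 0 members in each. The median log2 difference of the members was 0.17 for ASO1, -0.07 for ASO2 and 0.12 for both, and that of all genes was 0.05, 0.04 and 0.05.

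Plxnb1 and Sema3e had the next smallest p for both ASOs. Plxnb1 was at 84.5, 124 and 117 CPM with ASO1, 154, 148, 113 and 113 CPM with ASO2, and 159, 157 and 153 CPM with scASO. The ASO1 tumors lay below all scASO tumors, and 1 ASO2 tumor reached into the scASO range. Its log2 difference for both ASOs was -0.37 ± 0.16 (edgeR adjusted p = 0.827). Sema3e rested on 1 to 24 reads per tumor, at 0.901, 0.207 and 0.435 CPM with ASO1, 0.353, 0.137, 0.175 and 0.468 CPM with ASO2, and 0.148, 0.0261 and 0.116 CPM with scASO. Its log2 difference was 1.90 ± 0.70 for both ASOs and 2.36 ± 0.77 for ASO1 (edgeR adjusted p = 0.827 and 0.535).

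Among single ASOs, ASO1 had its smallest p in Sema4d (-0.73 ± 0.24 on the log2 scale), Sema3e and Plxna2, a plexin used by class 6 semaphorins. Plxna2 was at 8.33, 7.07 and 14.8 CPM with ASO1 against 5.47, 3.97 and 3.56 CPM with scASO, while ASO2 tumors had 2.60, 4.67, 3.82 and 1.41 CPM. All ASO1 tumors lay above, and ASO2 tumors within or below, the scASO range, and the log2 difference for ASO1 was 1.24 ± 0.46 (edgeR adjusted p = 0.537). For ASO2 the smallest p values were those of Sema4d (-0.59 ± 0.22), Plxnb2 (-0.42 ± 0.18) and Sema3e (1.45 ± 0.76), with an edgeR adjusted p of 0.886 for Sema4d. Plxnb2 was at 151, 255, 211 and 189 CPM with ASO2 and at 296, 249 and 269 CPM with scASO, so that the groups overlapped.

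Groups that did not overlap are a description at these sizes. For both ASOs 1 member, Sema4d, was lower in all ASO tumors and 0 were higher, where 1.43% of all genes tested were lower and 0.882% higher in this way. For ASO1, 4 members were higher (Sema4f, Plxna2, Plxnb3 and Sema3e; 7.06% of all genes) and 4 lower (Sema4d, Sema4g, Plxna3 and Plxnb1; 9.39%). For ASO2, Sema4d was lower (3.67%) and 0 members were higher (3.48%).

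**Figure D2:**
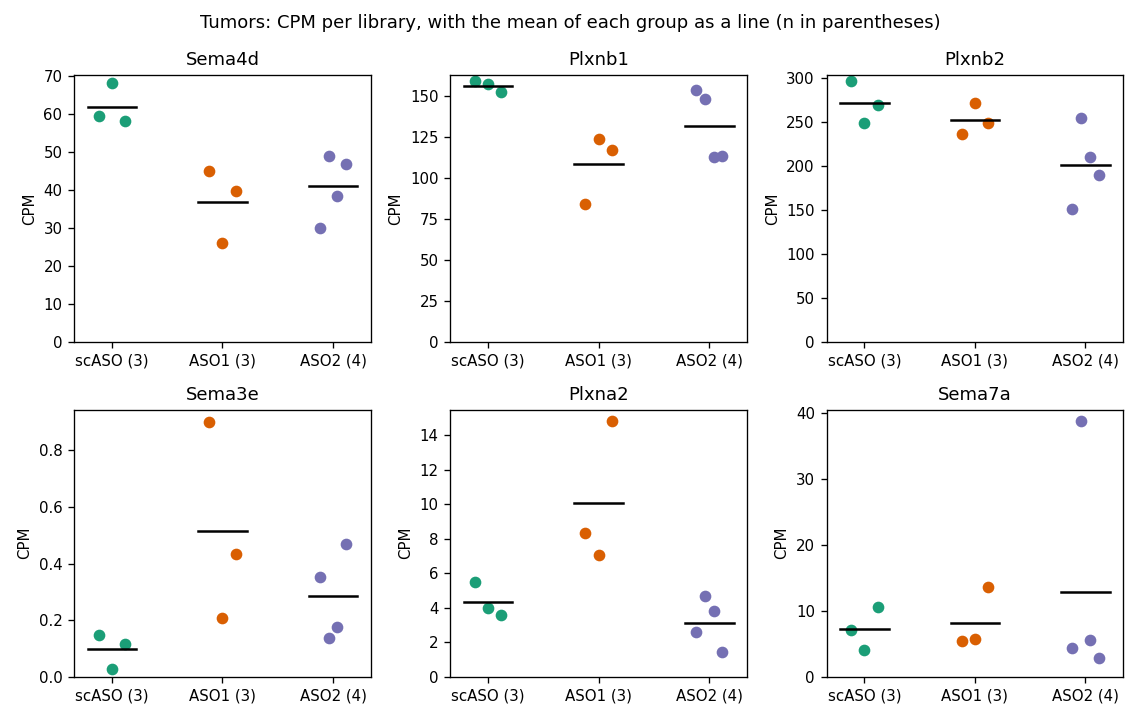
CPM of Sema4d, Plxnb1, Plxnb2, Sema3e, Plxna2 and Sema7a in each tumor, by group (scASO 3, ASO1 3 and ASO2 4 tumors), with a line at each group mean. Sema4d is below 50 CPM in every ASO tumor and at 58.1 CPM or above in every scASO tumor, and 1 ASO2 tumor stands apart for Sema7a at 38.8 CPM.

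A bulk tumor sample cannot tell fewer cells of a type from less RNA per cell. Sema4d is also made by lymphocytes, whose 10 markers summed to 3.74 to 18.6 CPM in the ASO tumors and 5.64 to 8.74 CPM in the scASO tumors, with up to 2 of the 10 at 0 in a tumor. Endothelial markers, all 10 detected in every tumor, summed to 108 to 232 CPM with ASO1, 48.3 to 116 CPM with ASO2 and 83.8 to 91.0 CPM with scASO. Schwann cell markers were, like Sema4d, lower in every ASO tumor than in any scASO tumor. They summed to 463 to 799 CPM with ASO1, 669 to 796 CPM with ASO2 and 877 to 990 CPM with scASO. Adipocyte markers were higher in every ASO tumor, barely so for ASO1. They summed to 22.2 to 40.0 CPM with ASO1, 25.2 to 1090 CPM with ASO2 and 13.2 to 22.1 CPM with scASO. Sums of the other marker lists overlapped between ASO and scASO tumors. The part of any of these cell types in these levels was not tested. ASO1 tumor 3, which had the highest endothelial sum, also had the highest level of the 10 tumors for Sema3d (16.4 CPM), Sema6d (66.1 CPM), Sema5a (38.2 CPM), Plxnd1 (44.7 CPM) and Plxna2; this tumor was picked out after values were seen. Its macrophage markers summed to 1107 CPM and its basal epithelial markers to 3332 CPM, the top of the tumor range in each case. Among the ASO2 tumors, skeletal muscle markers reached 2190 CPM and fibroblast and pericyte markers 3014 CPM. The scASO tumors were at 32.8 and 842 CPM at most. The part of such tissue in the levels of the ASO2 tumors was not tested.

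None of the other pathway genes listed for this family passed in tumors. For both ASOs edgeR called 0 of 16 semaphorin co-receptors and alternative receptors (such as Met, Erbb2 and Cd72), 0 of 39 plexin signalling effectors, 0 of 8 VEGF ligands and receptors, and 0 of 31 other axon guidance genes (netrin, Slit and ephrin systems). At an unadjusted p under 0.05 the counts were 2, 2, 0 and 4, again beside 5.86% of all genes.

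In organoids, no member passed the test for a Malat1 ASO against scASO either. The smallest p was that of Sema3g, a class 3 ligand made mainly by endothelium, on 4 to 57 reads per ASO or scASO library. Sema3g was at 1.57, 0.777, 0.740 and 0.166 CPM with scASO, 0.602, 0.256, 0.423 and 0.224 CPM with ASO1, and 0.254, 0.285, 0.504 and 0.153 CPM with ASO2, in the order of the replicate numbers in the labels. Both ASO groups overlapped with scASO through number 4, where all 3 groups were low. The log2 difference of both ASOs was -1.28 ± 0.56 (edgeR unadjusted p = 0.0367, adjusted p = 1.00), and -1.28 ± 0.67 (adjusted p = 1.00) without the libraries whose Malat1 level went against their label.

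EdgeR called 0 of 30 members for ASO1, ASO2 and both ASOs against scASO, and 0% of the 17126 genes tested in each. At an unadjusted p under 0.05, 0, 0 and 1 members passed, against 0.257%, 1.68% and 1.06% of all genes, and DESeq2 called 0. After Sema3g, the smallest p for both ASOs were those of Sema6b (0.42 ± 0.24 on the log2 scale) and Sema5a (-0.28 ± 0.18). ASO1 had Sema3g (-1.11 ± 0.67), Sema6b (0.36 ± 0.27) and Plxnc1 (-0.83 ± 0.66), and ASO2 had Sema3g (-1.45 ± 0.68), Sema6b (0.47 ± 0.27) and Sema5a (-0.29 ± 0.21), all with an adjusted p of 1.00.

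Organoid libraries that carry the same replicate number deviated together from their group means in all 24 pairs, so the number was also fitted as a block. With that block edgeR again called 0 of 30 members in each comparison with scASO, out of 0% of all genes. An unadjusted p under 0.05 was reached by 8, 9 and 10 of 30 members and by 7.16%, 20.7% and 18.4% of all genes. For both ASOs the leading blocked log2 differences were Plxnc1 (-0.83 ± 0.22, adjusted p = 0.188), Sema3g (-1.17 ± 0.32, 0.191) and Sema3f (0.35 ± 0.10, 0.191). Without the libraries whose Malat1 level went against their label the block called 0 members, and 0.00577%, 0.0173% and 0.0231% of all genes for ASO1, ASO2 and both. The blocked differences of both ASOs were then -0.88 ± 0.23 for Plxnc1, -0.81 ± 0.30 for Sema3g and 0.22 ± 0.09 for Sema3f (edgeR adjusted p = 0.404, 0.471 and 0.532).

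Nrp2 and Plxnd1 were at higher levels in every oligonucleotide culture, scASO included, than in the Mock culture of the same number. Without the block no member passed the test against Mock. With the replicate number as a block, Plxnd1 was higher with ASO1, ASO2 and scASO by 1.88, 1.75 and 1.86 fold, and Nrp2 was higher with ASO1 and ASO2 by 3.54 and 3.62 fold. For scASO the call of Nrp2 depended on the libraries whose Malat1 level went against their label: its log2 difference was 1.09 (edgeR adjusted p = 0.115) with them and 1.36 (0.0155) without them. Sema4b, a transmembrane class 4 ligand, was higher with ASO1 by 1.23 fold, and Sema7a, the ligand anchored by a lipid to the membrane, with scASO by 1.65 fold. The 3 comparisons share the same 4 Mock cultures and are not independent of each other, and a difference common to ASO1, ASO2 and scASO is not one between Malat1 ASOs and their control. Counts of pairs above Mock, here and below, use the same cultures as the blocked fit that picked these genes. The share of all genes above Mock in every pair was not counted. Such counts therefore describe the values and add no test.

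Nrp2 lies on GRCm38 chromosome 1 (62703285 to 62818695, plus strand; ENSMUSG00000025969.9) and Plxnd1 on chromosome 6 (115954811 to 115995005, minus strand; ENSMUSG00000030123.8). Their promoters are shown because these members were the ones called higher against Mock with both Malat1 ASOs. Each sequence is 218 bases upstream of the gene, read 5′ to 3′ on the gene's strand, from the RefSeq promoter table of build GRCm38.p6: chr1:62703067-62703284 for Nrp2 and chr6:115995038-115995255 for Plxnd1. The 32 bases next to the RefSeq start, where a TATA box would usually lie, were left out of both windows and not searched. Capitals mark matches to a searched motif.
Nrp2: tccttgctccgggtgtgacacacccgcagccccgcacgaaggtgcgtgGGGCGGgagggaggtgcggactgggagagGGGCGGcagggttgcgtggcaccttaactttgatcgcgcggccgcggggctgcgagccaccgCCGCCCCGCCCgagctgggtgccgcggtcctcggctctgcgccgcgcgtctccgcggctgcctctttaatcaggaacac
Plxnd1: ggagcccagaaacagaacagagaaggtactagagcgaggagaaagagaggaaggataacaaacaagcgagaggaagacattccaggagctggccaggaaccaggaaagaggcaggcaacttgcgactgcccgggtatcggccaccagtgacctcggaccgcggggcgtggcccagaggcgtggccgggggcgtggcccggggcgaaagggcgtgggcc
The motifs searched on both strands were the GC box (GGGCGG), the CCAAT box (CCAAT), the TATA box (TATAAA), the E-box (CACGTG), the AP-1 element (TGANTCA) and the CRE (TGACGTCA). The Nrp2 window held 4 matches to the GC box, of which the last 2 overlap, and no other motif, and the Plxnd1 window held none of the 6. Of 32851 promoter windows of this length, 28.2% held a GC box, 30.8% a CCAAT box, 9.87% a TATA box, 4.95% an E-box, 6.05% an AP-1 element and 1.13% a CRE. GC content was 72.5% for Nrp2 and 63.8% for Plxnd1, against a median of 51.8% over all windows. Of the 31 members, 26 had an entry in the promoter table.

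In the order of numbers 1 to 4, Nrp2 was at 13.9, 24.6, 5.15 and 46.2 CPM in the Mock cultures. It was at 35.8, 146, 19.0 and 119 CPM with ASO1, at 73.2, 139, 9.71 and 123 CPM with ASO2, and at 36.8, 43.8, 9.83 and 101 CPM with scASO. Number 3 was lowest in every group and number 2 or 4 highest, and the groups overlapped when numbers were ignored. Within a number, every oligonucleotide culture was above its Mock culture, 12 of 12 pairs, by 1.78 to 5.91 fold (median 2.61). Without the libraries whose Malat1 level went against their label the 10 remaining pairs ranged from 1.89 to 5.91 fold (median 2.61). The blocked log2 difference was 1.83 ± 0.30 for ASO1 (edgeR adjusted p = 0.0076), 1.86 ± 0.30 for ASO2 (0.0132) and 1.09 ± 0.29 for scASO (0.115). Whether the ASOs and scASO differ for Nrp2 was tested directly in the blocked fit, at 0.75 ± 0.26 for both ASOs (edgeR adjusted p = 0.211), which missed the threshold. Without the same libraries this difference was 0.32 ± 0.22 (adjusted p = 0.672), and those from Mock were 1.78 ± 0.22 for ASO1, 1.57 ± 0.24 for ASO2 and 1.36 ± 0.23 for scASO.

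Plxnd1 was at 14.7, 15.8, 5.35 and 8.33 CPM in the Mock cultures, again by number. With ASO1 it was at 23.0, 34.5, 9.26 and 18.3 CPM, with ASO2 at 21.8, 31.7, 9.55 and 15.5 CPM, and with scASO at 28.9, 26.5, 9.57 and 17.0 CPM. Each oligonucleotide culture exceeded the Mock culture of its number, by 1.49 to 2.2 fold (median 1.83) over 12 pairs, and by 1.57 to 2.2 fold (median 1.92) over the 10 pairs without those libraries. Blocked log2 differences were 0.91 ± 0.12 (ASO1, edgeR adjusted p = 0.00255), 0.81 ± 0.12 (ASO2, 0.0101) and 0.89 ± 0.12 (scASO, 0.00759). Both ASOs differed from scASO by -0.03 ± 0.10 in the same fit (edgeR adjusted p = 0.887), and by -0.10 ± 0.10 without those libraries (0.742).

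Sema4b (chromosome 7, 80186841 to 80226527, plus strand) varied little between cultures. It was at 57.4, 56.1, 59.2 and 69.9 CPM in Mock, 66.2, 73.6, 77.3 and 84.7 CPM with ASO1, 61.4, 68.4, 72.2 and 89.2 CPM with ASO2, and 58.6, 66.1, 64.9 and 81.0 CPM with scASO. All 12 pairs were above Mock, by 1.02 to 1.31 fold, a range that the 10 pairs kept. Its blocked log2 difference was 0.30 ± 0.06 for ASO1 (edgeR adjusted p = 0.0198), 0.24 for ASO2 (0.0645) and 0.14 for scASO (0.272). Sema7a (chromosome 9, 57940112 to 57962865, plus strand) was at 3.71, 4.05, 2.03 and 8.87 CPM in Mock, 5.47, 5.12, 2.27 and 10.6 CPM with ASO1, 6.58, 5.03, 3.69 and 10.6 CPM with ASO2, and 7.32, 6.91, 3.39 and 12.2 CPM with scASO. It was above Mock in all 12 pairs, by 1.12 to 1.97 fold, likewise the range of the 10 pairs. The blocked log2 difference was 0.72 ± 0.14 for scASO (edgeR adjusted p = 0.0392), 0.54 for ASO2 (0.069) and 0.32 for ASO1 (0.302).

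**Figure D3:**
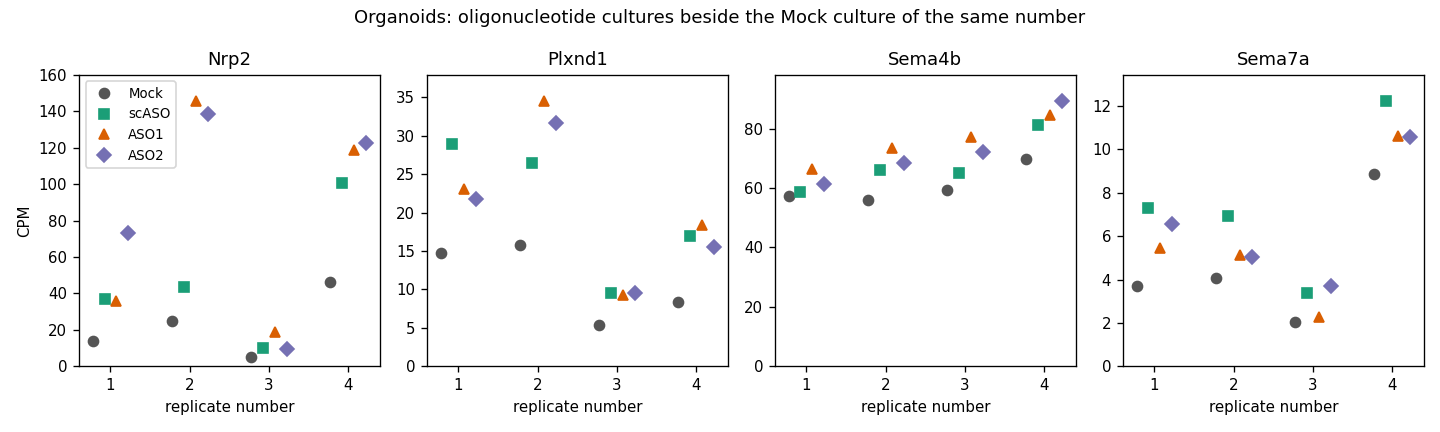
CPM of Nrp2, Plxnd1, Sema4b and Sema7a in the 16 organoid cultures, by replicate number (1 to 4), with a marker for each of Mock, scASO, ASO1 and ASO2. At each number the Mock culture is the lowest of the 4 for all 4 genes, which were picked by the blocked fit against these same Mock cultures.

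Counted over the family, the blocked fit called 3 of 30 members for ASO1 against Mock, 2 for ASO2 and 2 for scASO, all higher. Of all genes it called 2.38%, 1.82% and 0.747%, of which 1.87%, 1.45% and 0.549% were higher and 0.502%, 0.368% and 0.199% lower. Without the block the counts were 0 of 30 and 0% of all genes in each comparison, 1 member in each had an unadjusted p under 0.05 (1.93%, 1.82% and 1.59% of all genes), and DESeq2 called 0. The smallest p without the block were those of Sema3e (0.66 ± 0.28), Nrp2 (1.81 ± 0.89) and Plxnd1 (0.93 ± 0.46) for ASO1, of Nrp2 (1.91 ± 0.89), Plxnd1 (0.82 ± 0.46) and Sema4b (0.25 ± 0.15) for ASO2, and of Sema3e (0.62 ± 0.28), Plxnd1 (0.88 ± 0.46) and Sema4g (-0.49 ± 0.25) for scASO, as log2 differences with an edgeR adjusted p of 1.00. The blocked calls of Sema4b and Sema7a were the less stable, lost in 9 and 12 of 21 alternatives, with adjusted p up to 0.114 and 0.196. Without the number 4 cultures the blocked fit called 1, 0 and 0 members, Nrp2 having an edgeR adjusted p of 0.0602 for ASO1 and 0.0608 for ASO2, and Plxnd1 0.0608 for ASO2 and 0.121 for scASO. Plxnd1 with ASO1 was called in all 21 alternatives, while single cultures also decided calls: ASO2 replicate 2 for both genes with ASO2 (0.0694 for Nrp2 and 0.0534 for Plxnd1 without it), Mock replicate 2 for Nrp2 with ASO2 (0.0574) and scASO replicate 1 for Plxnd1 with scASO (0.0519). Without the libraries whose Malat1 level went against their label, the blocked fit called 6, 4 and 3 members out of 6.69%, 3.42% and 1.78% of all genes. The added calls were Plxna1, Sema3f and Sema6d for ASO1, Plxna1 and Sema4b for ASO2, and Nrp2 for scASO, all higher.

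Markers of other cell types moved in these cultures as well. Within numbers, basal epithelial markers were above Mock in 12 of 12 pairs (1.2 to 1.79 fold for the sum of 7), squamous markers in 11 (0.888 to 3.25 fold, sum of 8), endothelial markers in 10 (0.806 to 2.0 fold, sum of 10) and macrophage markers in 10 (0.880 to 1.48 fold, sum of 10). All genes of these 4 lists were detected in every organoid. Fibroblast and pericyte markers were above Mock in 5 pairs, luminal markers in 7, skeletal muscle in 9, proliferation in 7, adipocyte in 6 and Schwann cell markers in 4. Sums of the pathway lists were above Mock in 12 pairs for plexin effectors (1.01 to 1.06 fold), 11 for co-receptors, 11 for other axon guidance genes and 9 for VEGF genes. All these counts include the libraries whose Malat1 level went against their label, and have no share of all genes beside them. Endothelium, where Nrp2 and Plxnd1 are best known, contributed a summed marker level of 8.24 to 33.4 CPM to the organoids, and its part in the result was not tested, nor was that of basal cells. Lymphocyte markers were above Mock in 12 of 12 pairs but summed to only 0.320 to 1.39 CPM, with 3 to 8 of the 10 at 0 in each organoid.

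Other genes of the pathway were called in small numbers by the blocked fit. Of all genes it called 1.87% higher and 0.502% lower for ASO1, 1.45% and 0.368% for ASO2, and 0.549% and 0.199% for scASO. Mical1, a monooxygenase that disassembles actin downstream of plexins, was higher with ASO1, ASO2 and scASO (log2 differences of 0.59, 0.65 and 0.67; edgeR adjusted p = 0.0164, 0.0172 and 0.0263). In the order of ASO1, ASO2 and scASO, 2, 1 and 1 of 38 plexin effectors were called higher and 0 lower; the other effector was Dpysl2 with ASO1 (0.49, adjusted p = 0.0452), a microtubule-binding mediator of Sema3a signals. Flt4, the VEGF-C receptor that pairs with Nrp2, was higher with ASO1 (1.85 ± 0.38, edgeR adjusted p = 0.0221) and ASO2 (1.89 ± 0.38, 0.0271), and Flt1, another VEGF receptor, with ASO1 (0.67, 0.0474). That made 2, 1 and 0 of the 8 VEGF genes. Of 32 other axon guidance genes 3, 2 and 1 were called higher and 0 lower, with the netrin receptor Unc5b in each comparison (0.45, 0.40 and 0.44; edgeR adjusted p = 0.00635, 0.0172 and 0.0186), Robo3 (1.48) and Efnb1 (0.46) with ASO1, and Ephb6 (0.39) with ASO2. Among 16 co-receptors only Timd2, a receptor of Sema4a, was called, lower with ASO1 (-0.51 ± 0.11, edgeR adjusted p = 0.0285). Without the block 0 genes of these lists were called.

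Organoids and tumors differed in most of the family. Nrp2 was 3.53 ± 0.54 higher in organoids on the log2 scale (edgeR adjusted p = 9.92e-06), Sema3b 2.23 ± 0.24 (1.06e-07) and Plxna1, a receptor of class 3 and class 6 ligands, 1.93 ± 0.16 (3.63e-09). Plxnc1 was lower in organoids by a log2 difference of -2.55 ± 0.35 (3.08e-06). These values compare the ASO1, ASO2 and scASO groups of each system, weighted equally. The fit counts organoid libraries of the same replicate number as independent, although they deviated together from their group means. Its SE and p-values, here and below, may therefore be too small. The 2 systems differ in treatment route, dose and time as well as in tissue, which cannot be told apart here.

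EdgeR called 22 of 31 members, 15 higher and 7 lower in organoids, against 58.3% of the 18695 genes tested (28.5% higher and 29.8% lower). DESeq2 also called 22, against 52.4% of all genes. The median log2 difference was 0.20 for the members and -0.02 for all genes. Of the semaphorins 10 of 20 were higher and 4 lower, of the plexins 4 of 9 higher and 3 lower, and of the neuropilins 1 of 2 was higher.

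Among class 3 ligands, Sema3b, Sema3e (2.85 ± 0.30), Sema3a (2.13 ± 0.74, edgeR adjusted p = 0.0179), Sema3f (1.64 ± 0.20) and Sema3c (1.47 ± 0.23) were higher in organoids, Sema3g was lower (-1.48), and Sema3d (-0.97, edgeR adjusted p = 0.112) did not pass. In class 4, Sema4c (0.89) and Sema4b (0.84) were higher, while Sema4a (-0.30), Sema4d (0.20 ± 0.11, edgeR adjusted p = 0.136), Sema4f (-0.17) and Sema4g (0.06) did not pass. In class 5, Sema5a was higher (2.11 ± 0.32) and Sema5b lower (-2.07 ± 0.51). Class 6 was divided as well: Sema6a (0.84) and Sema6d (0.66, edgeR adjusted p = 0.0353) were higher and Sema6b (-1.36 ± 0.16) and Sema6c (-0.76) lower. Sema7a (-0.48) did not pass.

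Among the receptors, Plxna1, Plxna2 (1.36 ± 0.28), Plxnb2 (1.13 ± 0.11, edgeR adjusted p = 2.93e-08) and Plxnb1 (1.02 ± 0.14) were higher in organoids. Plxnc1, Plxnb3 (-2.28 ± 0.39) and Plxna4 (-1.33) were lower. Plxna3 (-0.15 ± 0.11, edgeR adjusted p = 0.242) and Plxnd1 (-0.07 ± 0.25, 0.819) did not pass, nor did Nrp1 (-0.66 ± 0.39, 0.146). For Nrp2 the tumors ranged from 2.06 to 19.6 CPM and the organoids from 5.15 to 146 CPM, so that the lowest organoids, those of number 3, fell within the tumor range. For 6 members every organoid was above every tumor (Sema5a, Plxna1, Sema4b, Plxnb2, Plxnb1 and Sema3b; 5.18% of all genes), and for 3 every organoid was below (Sema6b, Plxnb3 and Sema5b; 5.68%).

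**Figure D4:**
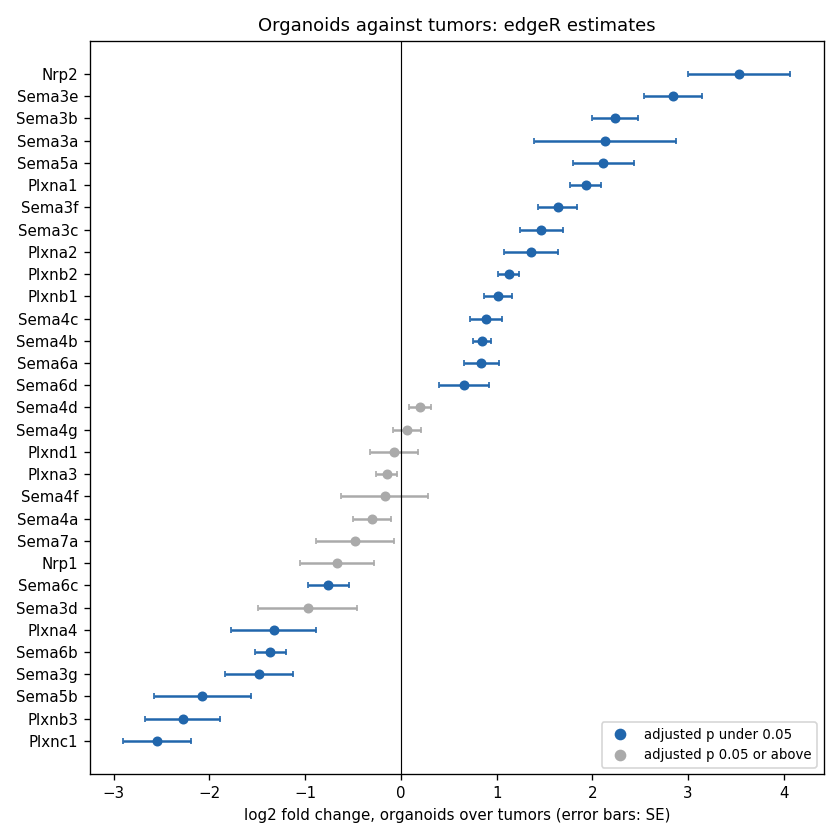
Log2 difference between organoids and tumors for each of the 31 members, with bars of 1 SE from edgeR; blue marks an adjusted p under 0.05 and grey the rest. Nrp2 is at the top at 3.53 and Plxnc1 at the bottom at -2.55, with 15 called members to the right of 0 and 7 to the left.

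Markers of other cell types differed between the systems along with these levels. Endothelial markers summed to 8.24 to 33.4 CPM in organoids and 48.3 to 232 CPM in tumors, lymphocyte markers to 0.320 to 1.39 and 3.74 to 18.6 CPM, macrophage markers to 230 to 565 and 428 to 1107 CPM, and fibroblast and pericyte markers to 126 to 686 and 492 to 3014 CPM. Basal markers summed to 1802 to 9202 CPM in organoids and 328 to 3332 CPM in tumors, and squamous markers to 169 to 6349 and 17.9 to 81.7 CPM. The lymphocyte markers Cd8a and Ms4a1 had 0 reads in all 16 organoids. Endothelial, lymphocyte, macrophage and fibroblast sums were thus on the whole lower in organoids, and basal and squamous sums higher. The part of any of these cell types in the members' differences was not tested. In the same comparison 7 of 16 co-receptors were called higher and 6 lower, the lower ones including the leukocyte receptors Cd72 (-4.02) and Tyrobp (-4.21) and the higher ones the adhesion molecule Chl1 (1.86) and the pseudokinase Ptk7 (1.21). Of 39 plexin effectors 23 were higher and 3 lower, with Mical2 at 2.43, Sh3bp1 at 1.47, Rock2 at 0.95 and Gsk3b at 0.90. Of 8 VEGF genes 4 were higher (Flt1 at 2.84, Pgf at 2.32 and Vegfa at 2.19 among them) and 1 lower (Kdr, -1.80), and of 32 other guidance genes 19 were higher and 4 lower, with Efnb1 at 2.44, Epha2 at 2.06, Unc5b at 1.85 and Ephb4 at 1.05. Beside these lists, 58.3% of all genes tested were called, 28.5% higher and 29.8% lower.

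Some of these calls depended on the libraries used. Sema3a was no longer called without the libraries whose Malat1 level went against their label (1.68, edgeR adjusted p = 0.0676) or without the ASO1 organoid of number 2 (0.0519). Sema6d was lost in 12 of 33 alternatives, and Plxna4 was lost without scASO tumor 1 (0.055). With the scASO groups of each system alone, 13 members were called, against 23.5% of all genes. The 9 that lost their call were Sema3a (1.51), Sema3g, Sema4c (0.61), Sema5b (-1.25), Sema6a (0.79), Sema6c (-0.95), Sema6d (0.76), Plxna4 (-1.20) and Plxnb3 (-1.40), with edgeR adjusted p from 0.0694 to 0.693. Sema3g moved furthest, to -0.38 from -1.48. Without the organoid libraries whose Malat1 level went against their label 20 of 31 members and 54.3% of all genes were called. With the replicate number as a block 23 members and 63.8% of all genes were called, Nrp1 being added (-1.19, edgeR adjusted p = 0.00295), although the numbers pair only the organoids.

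Within the organoids, the replicate number went with large differences in the family. The 4 cultures of number 4, 1 from each treatment, had the highest mean levels of Nrp1, Nrp2, Sema7a and Plxna2 and the lowest of Sema3d and Sema6d. With treatment in the fit, number 4 was above the mean of the other numbers by 1.71 ± 0.28 for Nrp1, 1.69 ± 0.22 for Nrp2, 1.33 ± 0.11 for Sema7a and 1.28 ± 0.15 for Plxna2 on the log2 scale. It was below by -2.24 ± 0.36 for Sema3d, on 2 to 21 reads per number 4 library, and by -0.86 ± 0.10 for Sema6d. The labels do not say what a number stands for.

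Nrp1 had means of 9.32, 4.45, 5.07 and 17.7 CPM for numbers 1 to 4 (n = 4 each), and Nrp2 39.9, 88.2, 10.9 and 97.1 CPM. Number 4 was thus high for both neuropilins, while number 2 was high for Nrp2 and lowest for Nrp1. Plxna2 had 10.4, 10.7, 8.49 and 23.0 CPM, and its number 4 cultures (17.2 in Mock, 21.8 with scASO, 23.3 with ASO1 and 29.9 with ASO2) were above all others. Sema3b had means of 210, 232, 253 and 367 CPM, and Sema7a 5.77, 5.28, 2.85 and 10.6 CPM. In the other direction Sema3d had 1.48, 1.19, 2.33 and 0.307 CPM and Sema6d 45.1, 43.3, 31.1 and 21.1 CPM.

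EdgeR called a difference between numbers in 24 of 30 members, against 81% of all genes, so that the share of members was close to that of all genes. The members that did not pass were Sema3e, Sema4f, Sema5a, Sema6b, Sema6c and Plxna3. Without the libraries whose Malat1 level went against their label 25 members differed, against 88.4% of all genes, Sema6c being added, and number 4 was above the others by 1.75 ± 0.19 for Nrp1 and 1.69 ± 0.16 for Nrp2. In the contrast of number 4 with the other numbers 19 members were called, 12 higher and 7 lower, where 63.1% of all genes were called (31.8% higher and 31.3% lower). The further members higher in number 4 were Sema3b (0.71 ± 0.07), Plxnc1 (0.61), Sema4c (0.56), Sema4d (0.43), Plxna1 (0.39), Plxnb2 (0.39), Sema4b (0.37) and Sema3c (0.36), and those lower were Plxnb3 (-1.97), Sema3g (-1.60), Sema3a (-1.44), Sema6a (-0.74) and Sema4a (-0.70). Of the listed pathway genes, 12 of 16 co-receptors, 28 of 38 effectors, 8 of 8 VEGF genes and 26 of 32 guidance genes differed between numbers, with Mst1r, a partner of B-type plexins, at 2.07, Rnd3, a small GTPase, at 1.29, Vegfa at 1.25 and Efna3 at 2.35 in number 4.

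**Figure D5:**
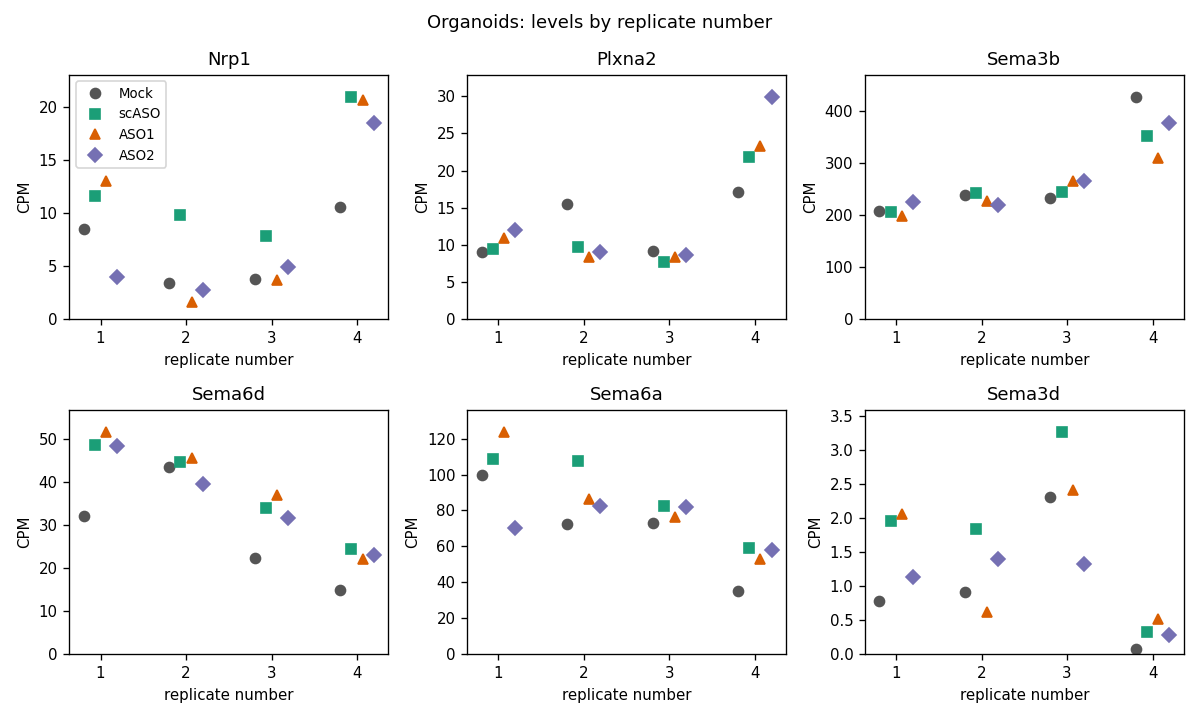
CPM of Nrp1, Plxna2, Sema3b, Sema6d, Sema6a and Sema3d in the 16 organoid cultures by replicate number, with a marker for each treatment. Within each treatment the number 4 culture is highest for Plxna2 and Sema3b and lowest for Sema6d and Sema3d, with Plxna2 between 17.2 and 29.9 CPM in number 4.

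Squamous markers summed to 4093 to 6349 CPM in the number 4 cultures and 169 to 689 CPM in the others. Basal markers summed to 5256 to 9202 CPM against 1802 to 5395 CPM, and adipocyte markers to 59.2 to 96.8 CPM against 17.4 to 34.6 CPM. Fibroblast and pericyte markers (126 to 205 CPM) and macrophage markers (230 to 284 CPM) were lowest in number 3, the number with the least Nrp2 and Plxnd1. Basal markers also had their lowest sums in number 3 (1802 to 2894 CPM), in part overlapping with number 1 (2478 to 4210 CPM). The part of any of these cell types in the differences between numbers was not tested. Without number 4, 18 members still differed between the remaining numbers, where 56.2% of all genes did.

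The response to the Malat1 ASOs was compared between tumors and organoids as a difference of differences. No member passed: edgeR called 0 of 31 members and 0% of all genes, and DESeq2 called 0 members. With the replicate block edgeR also called 0 members, and 0.0214% of all genes. At an unadjusted p under 0.05, 3 of 31 members passed, against 4.45% of all genes. In edgeR's test they were Sema3e (2.0 ± 0.63 on the log2 scale, unadjusted p = 0.00447), Sema4d (-0.71 ± 0.24, 0.00725) and Sema3g (1.65 ± 0.78, 0.0446), each with an adjusted p of 1.00. Sema4d thus had a log2 difference of -0.66 from scASO in tumors, and the test of whether this differs from organoids missed the threshold over all genes.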

How the data were processed

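PolyA+ RNA libraries of 10 tumors and 16 organoid cultures were used, each with a deposited table of raw counts of reads per gene, not normalized. Per the labels' protocols, TRIzol was used for extraction and TruSeq chemistry for libraries from 1 μg of RNA. The submitters' processing notes name STAR, HTSeq, CASAVA, FastQC and DESeq2 and the mm9 build, with annotation, options and versions not given in the sources used here. Reads that the tables list as unassigned entered neither library sizes nor tests. Relative to assigned reads these held, for no feature, ambiguous and several alignments, 11.1 to 24.5%, 3.90 to 4.65% and 24.1 to 44.0% in tumors and 8.34 to 14.6%, 4.44 to 8.70% and 21.2 to 32.7% in organoids.

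Of the gene IDs, 32620 matched a symbol in GENCODE M21 (GRCm38) and 4690 did not, and all members matched. The members, gene lists, markers and tests were chosen with earlier results of these data known. Genes given in full were those called in any comparison with or without the replicate block, the 3 members with the smallest p where none was called, the most abundant ligand, plexin and neuropilin of each system, and up to 4 called genes per list. All listed genes matched but Figf, Ntn3 and Emr1.

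EdgeR 4.0.16 (R 4.3.3; quasi-likelihood F-test, TMM, low counts removed by filterByExpr at 10 per library and 15 in total) was fitted to all genes of the 10 tumors, of the 16 organoids and of all 26 libraries, with Benjamini-Hochberg adjustment per comparison and a threshold of 0.05. Standard errors are the absolute log2 fold change over the square root of F. CPM used TMM-scaled totals of all 26 libraries, and CPM per kilobase the union of exons. The fits were also run on simulated counts. For organoids against tumors these were drawn without differences between replicate numbers. They cannot show how such differences affect the p-values of that comparison. Permutation tests used scipy 1.17.1 on log2 CPM without a prior count. The correlations between libraries given below used log2 CPM with a prior count of 2. DESeq2 1.42.0 was an alternative.

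Groups and numbers came from the sample titles. Deviations from group means correlated at 0.436 to 0.919 (median 0.780) between organoid libraries of the same number, above 0.1 in 24 of 24 pairs. The median was -0.309 otherwise. Deviations within a group sum to 0, which by itself pushes that value below 0 when libraries of a number deviate together. The labels do not say what a number shares. In tumors 2 of 9 pairs exceeded 0.1. The blocked fit was therefore given for organoids.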

Additional observations from a re-analysis of the deposited data

Results flagged for a closer look

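Among 155 groups of 4 samples tested over the members, 12 held a library far from the other 3 (Dixon's ratio above 0.829), where chance flags about 1 in 20 groups. In the ASO2 tumors these were Sema7a at 38.8 CPM and Sema4f at 0.797 CPM (29 reads), both in tumor 2. Plxna2 was far above the rest in number 4 of 3 organoid groups, at 23.3 CPM with ASO1, 29.9 CPM with ASO2 and 21.8 CPM with scASO. Number 4 also stood apart for Nrp1 (18.5 CPM) and Sema4d (72.3 CPM) with ASO2 and for Sema3b in Mock (427 CPM). Number 3 stood apart for Plxnb3 (1.06 CPM) and Sema4a (62.9 CPM) with ASO2 and for Sema5a with scASO (85.6 CPM), all high, and for Plxna1 with ASO1, low at 98.5 CPM.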

How the results depend on the processing

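The counts of members against Mock (ASO1, ASO2 and scASO) went from 0 to 3, 2 and 2 with the replicate block, and to 6, 4 and 3 with the block and without the organoid libraries labelled ASO2 replicate 1 and scASO replicate 2. Alternatives to that blocked fit were chosen after seeing the data: DESeq2 gave 6, 6 and 4, leaving out the same libraries 6, 4 and 3, leaving out number 4 gave 1, 0 and 0, and leaving out single libraries 2 to 5, 0 to 3 and 0 to 3. Plxnd1 with ASO1 was called in all 21 alternatives (adjusted p at most 0.0476). Nrp2 lost its call without number 4 for ASO1 (0.0602) and ASO2 (0.0608), and for ASO2 without ASO2 replicate 2 (0.0694) or Mock replicate 2 (0.0574). Plxnd1 lost it without number 4 for ASO2 (0.0608) and scASO (0.121), without ASO2 replicate 2 for ASO2 (0.0534) and without scASO replicate 1 for scASO (0.0519). Between organoids and tumors, the scASO groups alone gave 13 called members in place of 22, and leaving out single libraries 20 to 23. The replicate block gave 23 there, adding Nrp1 (-1.19, adjusted p = 0.00295), although tumor numbers do not pair, and it changed no other call. Malat1 in organoids had 15.9% remaining without the libraries that went against their label (exact permutation p = 0.0167). Leaving out single libraries gave 24 to 26 members that differed between numbers. Over single genes, 1487 values kept direction and side of the threshold, 52 fell below it, 15 passed it and 0 reversed. Depth limits Sema3e, Sema3a, Sema3g, Sema4f, Sema5b and Plxna4, which rest on few reads per library. In organoids it also limits Sema3d (2 to 137 reads per library), Plxnb3 (3 to 78) and Plxnc1 (4 to 65).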
